A study of Mus musculus with 3 samples.

Results

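Accessibility was described at 10 early response genes of mouse skin: the zinc finger factors Egr1, Egr2 and Egr3, the orphan nuclear receptors Nr4a1, Nr4a2 and Nr4a3, the Krüppel-like factors Klf2, Klf4 and Klf6, and Ier2. The members were named genes, and each was measured over every deposited feature (a 500 bp region) that overlapped its gene body or the 2 kb on either side. They held 133 of the 315694 features, and were 10 of the 18019 protein-coding genes with a feature. Open chromatin had been read by single-nucleus ATAC-seq, which inserts sequencing tags where DNA is accessible. The nuclei were GFP-positive and came from dorsal skin; the mice carried Dct-rtTA and Tre-H2B-GFP, so that doxycycline (20 mg per 100 ml, 5 days) labels histones where Dct, a melanin synthesis gene, has an active promoter. The UVB nuclei came from a pool of 24 mice irradiated at 2.2 mJ/cm2 on 3 occasions within a week. The anagen nuclei came from 8 mice whose hair cycle had been started by depilation with Nair cream, and the telogen nuclei from 12 mice in the resting phase. All mice carried both transgenes and all received doxycycline, and their age is given as 7 weeks in the treatment text and 8 weeks in the sample characteristics. All skin was dissociated with collagenase and trypsin before nuclei were isolated.

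Early response genes are switched on within minutes of a growth factor, a stress or a rise in cyclic AMP, with no new protein needed, because the factors that drive them are already bound or present in the cell. Their promoters commonly carry cyclic AMP response elements, bound by CREB, and CArG boxes, bound by serum response factor. In human melanocytes the NR4A receptors act downstream of the melanocortin receptor and have been tied to the handling of UV damage in DNA. Klf4 is known in mouse epidermis for building the skin barrier, and Klf2 in endothelium for the response to blood flow.

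With 1 sample in each condition there was no replicate error to set a difference against, and no test was made. The 95% intervals cover counting error only. Anagen and telogen nuclei shared a library, and UVB nuclei were in others, so an effect of UVB and one of the library cannot be told apart. Counted once, the data held 6553 UVB, 3753 anagen and 2042 telogen nuclei with 16182770, 10397896 and 5225945 counts, and medians of 1726, 1577 and 1650 counts per nucleus. Barcodes also carried tag numbers that the labels do not explain, and their range is given below as a description of spread. Tag number 19 alone held 2934 of the UVB nuclei, and its melanocyte-like share was 10.0%, against 47.6% in the remaining UVB tag numbers. Melanocyte-like nuclei were clusters 1 and 8 of 10 clusters and numbered 2016 in UVB, 991 in anagen and 147 in telogen. The UVB and telogen nuclei of this class lay mostly in cluster 1 (1977 and 144 nuclei) and the anagen nuclei mostly in cluster 8 (788 nuclei, with 203 in cluster 1). Of 13 melanocyte markers, 11 in UVB, 13 in anagen and 11 in telogen were at 2-fold or more over the other nuclei of the same condition. Cluster 1 was the less distinct: its median marker fold (log2) was 1.23 for the melanocyte list and 0.98 for the Schwann list. This margin of 0.25 is just past the 0.2 required for a name, a limit set after the scores were seen, so the naming of nearly all UVB and telogen nuclei of the class rests on it. Cluster 4 (999 UVB, 159 anagen and 84 telogen nuclei) scored highest for the melanocyte list, at 0.57, with 5 of 13 markers at 2-fold. The Schwann list came next, at 0.19. Its margin of 0.38 passed, but another list had more markers among its 10 leading genes, which include the pericyte gene Rgs5. Cluster 4 was therefore left unnamed. In each of the other clusterings a cluster that shared the leading genes Dcx and Fut9 with it was named melanocyte. The shares of counts lying within 1 kb of a gene end differed between the groups compared, at 45.3% in UVB, 36.5% in anagen and 47.0% in telogen melanocyte-like nuclei. Beyond scaling to it, its part in the ratios below was not tested.

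Promoter windows of 300 bases (250 before to 50 after the start) from RefSeq on GRCm38.p6 were matched for 7 members. They are shown because the leading features of Nr4a1, Nr4a2, Klf2, Klf4, Klf6 and Egr2 lay on them, and Nr4a3 completes its family. Egr1, Egr3 and Ier2 had no window. The windows were chr15:101266596-101266895 for Nr4a1 (plus strand), chr2:57123954-57124253 for Nr4a2 (minus strand), chr4:48045055-48045354 for Nr4a3 (plus strand), chr8:72318812-72319111 for Klf2 (plus strand), chr4:55532426-55532725 for Klf4 (minus strand), chr13:5861239-5861538 for Klf6 (plus strand) and chr10:67537619-67537918 for Egr2 (plus strand, 1 of its 5 listed starts). Capitals mark the core of the cyclic AMP response element (TGACG on either strand), the CArG box (in Egr2 alone) and the TATA box (TATAAA on either strand, in Nr4a2 alone).
Nr4a1: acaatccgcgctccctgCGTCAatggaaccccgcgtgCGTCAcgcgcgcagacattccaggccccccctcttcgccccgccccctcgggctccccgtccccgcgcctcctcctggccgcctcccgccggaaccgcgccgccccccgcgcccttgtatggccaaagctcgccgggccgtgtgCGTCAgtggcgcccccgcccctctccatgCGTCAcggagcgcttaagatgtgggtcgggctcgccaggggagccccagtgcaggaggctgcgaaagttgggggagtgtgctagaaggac
Nr4a2: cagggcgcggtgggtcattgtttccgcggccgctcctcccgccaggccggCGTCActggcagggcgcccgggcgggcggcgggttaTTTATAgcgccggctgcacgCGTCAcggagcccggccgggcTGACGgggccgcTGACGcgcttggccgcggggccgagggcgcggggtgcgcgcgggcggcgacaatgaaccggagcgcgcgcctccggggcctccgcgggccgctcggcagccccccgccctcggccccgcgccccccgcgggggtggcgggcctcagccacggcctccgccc
Nr4a3: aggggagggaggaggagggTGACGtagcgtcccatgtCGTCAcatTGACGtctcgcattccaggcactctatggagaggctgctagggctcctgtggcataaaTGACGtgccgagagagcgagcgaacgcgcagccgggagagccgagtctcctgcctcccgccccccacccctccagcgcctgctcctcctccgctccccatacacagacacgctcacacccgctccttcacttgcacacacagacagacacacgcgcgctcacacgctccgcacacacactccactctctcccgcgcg
Klf2: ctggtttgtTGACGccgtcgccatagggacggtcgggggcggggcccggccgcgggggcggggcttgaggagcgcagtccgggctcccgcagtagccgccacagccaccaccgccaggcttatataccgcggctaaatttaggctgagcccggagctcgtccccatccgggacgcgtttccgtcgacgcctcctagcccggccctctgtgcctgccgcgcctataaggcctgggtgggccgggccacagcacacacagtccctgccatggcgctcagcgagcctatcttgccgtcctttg
Klf4: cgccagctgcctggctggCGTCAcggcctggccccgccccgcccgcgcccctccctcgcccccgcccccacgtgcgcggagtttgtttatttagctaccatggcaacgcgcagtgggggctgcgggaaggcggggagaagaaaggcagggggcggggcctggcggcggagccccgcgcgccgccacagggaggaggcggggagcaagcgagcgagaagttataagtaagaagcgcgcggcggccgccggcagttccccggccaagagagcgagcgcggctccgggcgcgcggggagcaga
Klf6: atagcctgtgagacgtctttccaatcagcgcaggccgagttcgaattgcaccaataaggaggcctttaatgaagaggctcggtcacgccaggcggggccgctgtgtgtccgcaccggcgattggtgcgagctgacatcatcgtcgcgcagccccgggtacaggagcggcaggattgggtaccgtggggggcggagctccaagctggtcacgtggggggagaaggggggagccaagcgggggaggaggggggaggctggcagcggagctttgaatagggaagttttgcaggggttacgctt
Egr2: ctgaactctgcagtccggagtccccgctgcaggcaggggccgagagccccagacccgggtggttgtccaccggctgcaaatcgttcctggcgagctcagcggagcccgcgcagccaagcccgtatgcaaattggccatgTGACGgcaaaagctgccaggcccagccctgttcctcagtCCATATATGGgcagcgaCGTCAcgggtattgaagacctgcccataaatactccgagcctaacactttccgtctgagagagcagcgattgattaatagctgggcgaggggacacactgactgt

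The cyclic AMP response core was present in 4 copies in each of the 3 Nr4a windows, in 2 copies in the Egr2 window and in 1 copy in each of the Klf2 and Klf4 windows. The Klf6 window held none. Of 32851 promoter windows of the same length, 20.8% held at least 1 copy. In Nr4a1 all 4 copies lay on the strand opposite to the gene, 2 of them beginning at positions -69 and -40 from the start. The CArG box, which 1.63% of all windows held, was found in Egr2 at position -72, between its 2 cyclic AMP response cores. The Egr2 start shown was picked for having the most marked matches, so the shares over all windows cannot be set against it. Its window at chr10:67535249-67535548 held neither motif. That at chr10:67537316-67537615 held the CArG box and no cyclic AMP response core. GC boxes (GGGCGG, either strand, in 35.7% of all windows) were found in Nr4a1 (3), Nr4a2 (5, of which 2 overlap), Nr4a3 (1), Klf2 (2), Klf4 (4, of which 2 share a base) and Klf6 (1). No window of a member held the AP-1 letters TGANTCA, which 7.81% of all windows held, and the TATA box was in 13.6% of all windows. In Nr4a2 the TATAAA letters lay on the strand opposite to the gene, at positions -164 to -159 from the start. These are matches of letters and do not show that a factor binds there.

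In melanocyte-like nuclei most members were more open in UVB than in anagen. Of the 10 members, 7 were at least 1.5-fold higher in UVB, none was as far lower, and the median log2 ratio was 0.75, against -0.02 over all 14672 genes with at least 30 counts. Among all genes 16.7% were that far higher in UVB and 22.9% that far lower, 39.6% in all. The 2 conditions were mostly different clusters, and the difference was smaller within cluster 1, which both shared. There 2 of 10 members, Nr4a2 and Klf4, were past 1.5-fold, both higher in UVB, and the median was 0.19. Of 13242 genes 17.5% were that far higher and 15.0% that far lower, 32.4% in all. Cluster 8 also held both, with 39 UVB and 788 anagen nuclei. UVB and anagen levels there were 136 and 125 CPM for Egr1, 58.7 and 50.7 for Egr2, and 13.6 and 26.9 for Egr3. They were 226 and 164 CPM for Nr4a1, 131 and 106 for Nr4a2, and 298 and 259 for Nr4a3. For Klf2 they were 45.2 and 40.0 CPM, for Klf4 54.2 and 99.8, for Klf6 158 and 175, and for Ier2 99.4 and 104. These UVB levels rest on 3 to 66 counts. In the whole class, scaling to counts near gene ends shifts every gene by -0.31 on the log2 scale. The members' count was then 4 of 10, all higher, and their median 0.44. Of all genes 7.32% were then that far higher and 35.6% lower.

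**Figure D1:**
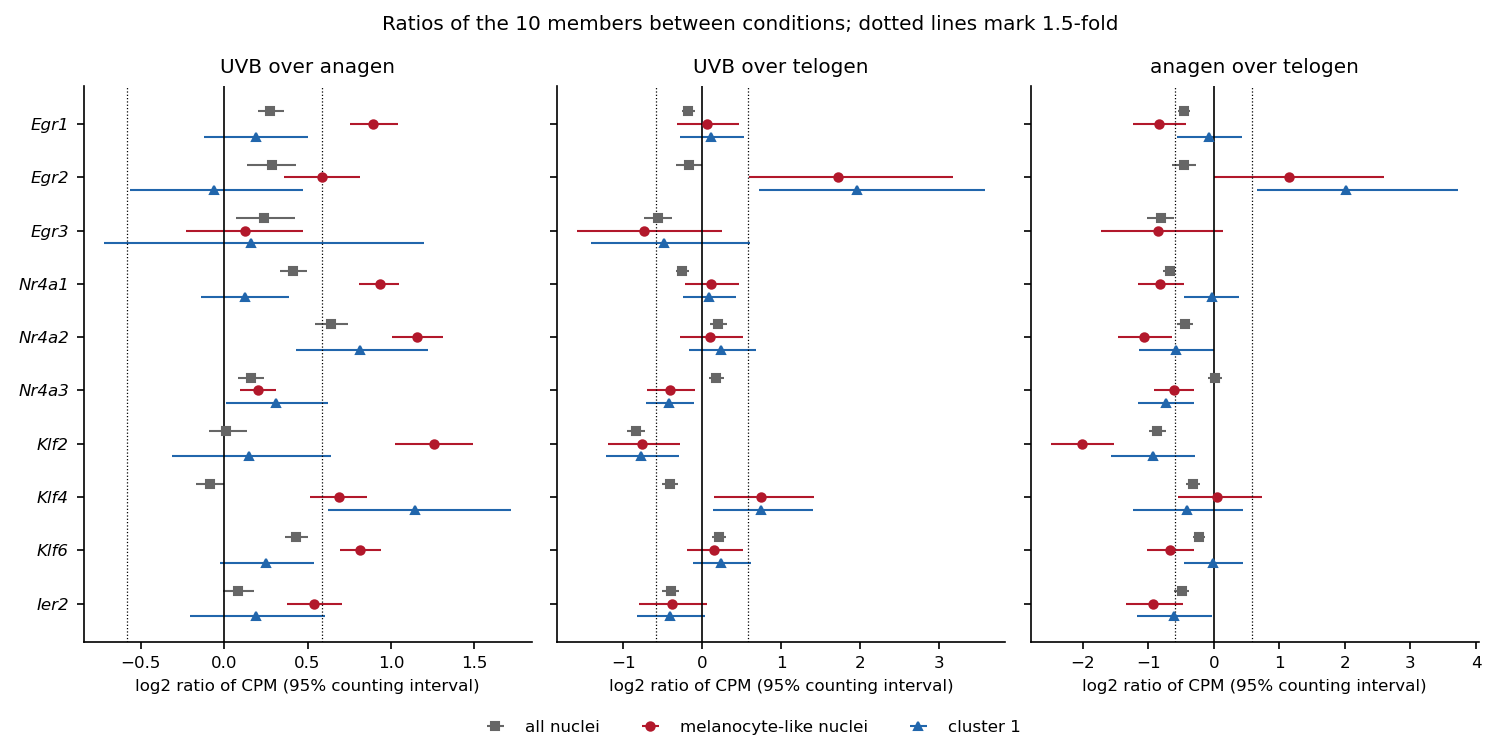
Log2 ratios of CPM for the 10 members (rows) in UVB over anagen, UVB over telogen and anagen over telogen, for all nuclei (squares), melanocyte-like nuclei (circles) and cluster 1 alone (triangles). Bars are 95% counting intervals, dotted lines mark 1.5-fold, and points with under 30 counts are not drawn; in UVB over anagen the circles lie to the right of the triangles for 7 members, and Nr4a3, Klf4 and Egr3 are the exceptions.

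The Nr4a receptors, ligand-independent nuclear receptors whose activity is set largely by how much of them is made, come first. Nr4a2 (chromosome 2, 57106830 to 57124003) had 244 CPM in UVB, 109 CPM in anagen and 227 CPM in telogen melanocyte-like nuclei, where CPM is counts per 1000000 counts in features. The UVB value was 2.23-fold that of anagen (95% interval 2.01 to 2.48), and UVB and telogen lay within their counting error (ratio 1.07, 0.820 to 1.43). It was also 1 of the 2 members past 1.5-fold within cluster 1, at 249 CPM in UVB and 141 CPM in anagen (1.76-fold, 1.35 to 2.33). Nr4a2 is the dopamine neuron factor Nurr1, and 4 of its 17 features, the leading one among them, lie also in the window of LOC105244150, so counts there cannot be given to either gene alone.

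Nr4a1 (Nur77; chromosome 15, 101253902 to 101274795) had 339 CPM in UVB, 178 CPM in anagen and 313 CPM in telogen melanocyte-like nuclei, a UVB over anagen ratio of 1.91 (1.75 to 2.07). In cluster 1 the levels were 344, 317 and 324 CPM, and none of the 3 ratios had an interval off 1. The anagen nuclei of cluster 8 were at 164 CPM. Nr4a3 (Nor1; chromosome 4, 48045078 to 48086447) differed less, with 296 CPM in UVB, 258 CPM in anagen and 394 CPM in telogen. Its UVB over anagen ratio was 1.15 (1.07 to 1.24), and 1.24 (1.01 to 1.54) in cluster 1. The ratio of the whole class turned to the other direction, at -0.11 on the log2 scale, when scaled to counts near gene ends. Against telogen Nr4a3 was lower in both, at 0.753 in UVB (0.613 to 0.935) and 0.654 in anagen (0.532 to 0.813), and the same held in cluster 1 (0.749 and 0.604).

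In UVB melanocyte-like nuclei Klf2 was below telogen and Klf4 above it. Klf2 (chromosome 8, 72319062 to 72321654) had 108 CPM in UVB, 45.2 CPM in anagen and 183 CPM in telogen melanocyte-like nuclei. It was lower than in telogen in both, at 0.591 in UVB (0.435 to 0.820) and 0.248 in anagen (0.179 to 0.350), with 45 counts in telogen. Within cluster 1 the ratios to telogen were 0.585 (0.431 to 0.812) in UVB and 0.528 (0.337 to 0.824) in anagen. Klf2 was also below telogen in each of the 7 cell classes, with ratios of 0.591 to 0.909 in UVB and 0.248 to 0.910 in anagen, though in each of these comparisons the interval was below 1 in 3 classes and held 1 in 4. Of genes with at least 30 counts in every class, 1.11% of 8023 were below telogen in all classes in UVB and 1.33% of 1358 in anagen.

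Klf4 (chromosome 4, 55527137 to 55532475) had the highest UVB over anagen ratio of the members in cluster 1, with 162 CPM in UVB, 73.1 CPM in anagen and 96.8 CPM in telogen. The ratios were 2.21 over anagen (1.54 to 3.30) and 1.67 over telogen (1.10 to 2.65), on 770, 30 and 23 counts. In cluster 8 Klf4 was at 54.2 CPM in UVB, on 12 counts, and at 99.8 CPM in anagen. Over all nuclei the order was otherwise than in cluster 1, with 164 CPM in UVB, 173 CPM in anagen and 216 CPM in telogen. Klf6 (chromosome 13, 5861489 to 5870393), a broadly expressed family member, had 325 CPM in UVB, 184 CPM in anagen and 292 CPM in telogen melanocyte-like nuclei. Its UVB over anagen ratio was 1.76 (1.62 to 1.92) there and 1.19 (0.982 to 1.45) in cluster 1.

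Egr1 (chromosome 18, 34861207 to 34864956), the serum- and stress-induced prototype of its family, had 249 CPM in UVB, 134 CPM in anagen and 239 CPM in telogen melanocyte-like nuclei. UVB over anagen was 1.86 (1.69 to 2.06), and 1.14 (0.918 to 1.42) in cluster 1. Egr2 (Krox20, the myelination factor of Schwann cells; chromosome 10, 67534469 to 67542188) had 80.6 CPM in UVB, 53.7 CPM in anagen and 24.4 CPM in telogen. It was the member furthest above telogen in UVB, at 3.31 (1.51 to 9.08), but telogen held only 6 counts of it. In cluster 1 the Egr2 level was alike in UVB and anagen (81.7 and 85.3 CPM) and rested on 5 counts in telogen. Egr3 (chromosome 14, 70077317 to 70082613) was the least open member per length in UVB and anagen, at 6.51 and 5.97 CPM per kb of features, while in telogen Egr2 (5.41) was below it (10.8). For Egr3 none of its 3 ratios had an interval off 1. Ier2 (chromosome 8, 84661331 to 84662852), a small nuclear protein induced by growth factors, had 156 CPM in UVB, 107 CPM in anagen and 203 CPM in telogen. Its ratio of UVB over anagen was 1.45 (1.30 to 1.63).

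Set against telogen, the members of UVB and of anagen melanocyte-like nuclei had different medians. In UVB over telogen, Egr2 and Klf4 were past 1.5-fold higher, Klf2 and Egr3 past 1.5-fold lower, and the other 6 lay between; the median was 0.08 and that of 13270 genes was 0.04. Of all genes 23.6% were that far higher and 14.0% that far lower, 37.6% in all. In anagen over telogen 8 of 10 members were past 1.5-fold lower and 1, Egr2, higher, with a median of -0.83 against 0.08 over 13737 genes, of which 22.1% were that far lower and 32.1% higher, 54.3% in all. The count of 9 rested on the 147 telogen nuclei of the class and was 4 within cluster 1 (where 32.1% of 6786 genes were past the fold) and 3 in each of the clusterings that held more telogen nuclei. The comparisons share samples, so the 3 sets of ratios are not independent of each other.

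Over all sorted nuclei fewer members were past 1.5-fold. The median log2 ratio was 0.26 for UVB over anagen (all genes -0.03), -0.21 for UVB over telogen (all genes -0.13) and -0.46 for anagen over telogen (all genes -0.11). Past 1.5-fold were Nr4a2 in UVB over anagen (1.56, 1.46 to 1.67), Klf2 in UVB over telogen (0.559, 0.516 to 0.605), and Egr3, Nr4a1 and Klf2 in anagen over telogen (0.572, 0.629 and 0.551). Among all genes 10.2% were that far higher and 13.1% lower in UVB over anagen, 9.07% and 16.0% in UVB over telogen (25.1% in all), and 12.9% and 16.3% in anagen over telogen. Cell makeup differed between the conditions: endothelial-like nuclei, in which Klf2 and Klf4 were highest, were 6.50% of UVB, 22.8% of anagen and 30.2% of telogen nuclei. With the classes given equal shares in every condition the medians were 0.27, -0.11 and -0.38, and no member was past 1.5-fold in UVB over either of the others. Leaving out UVB tag number 19 moved the UVB medians to 0.44 over anagen and -0.05 over telogen.

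**Figure D2:**
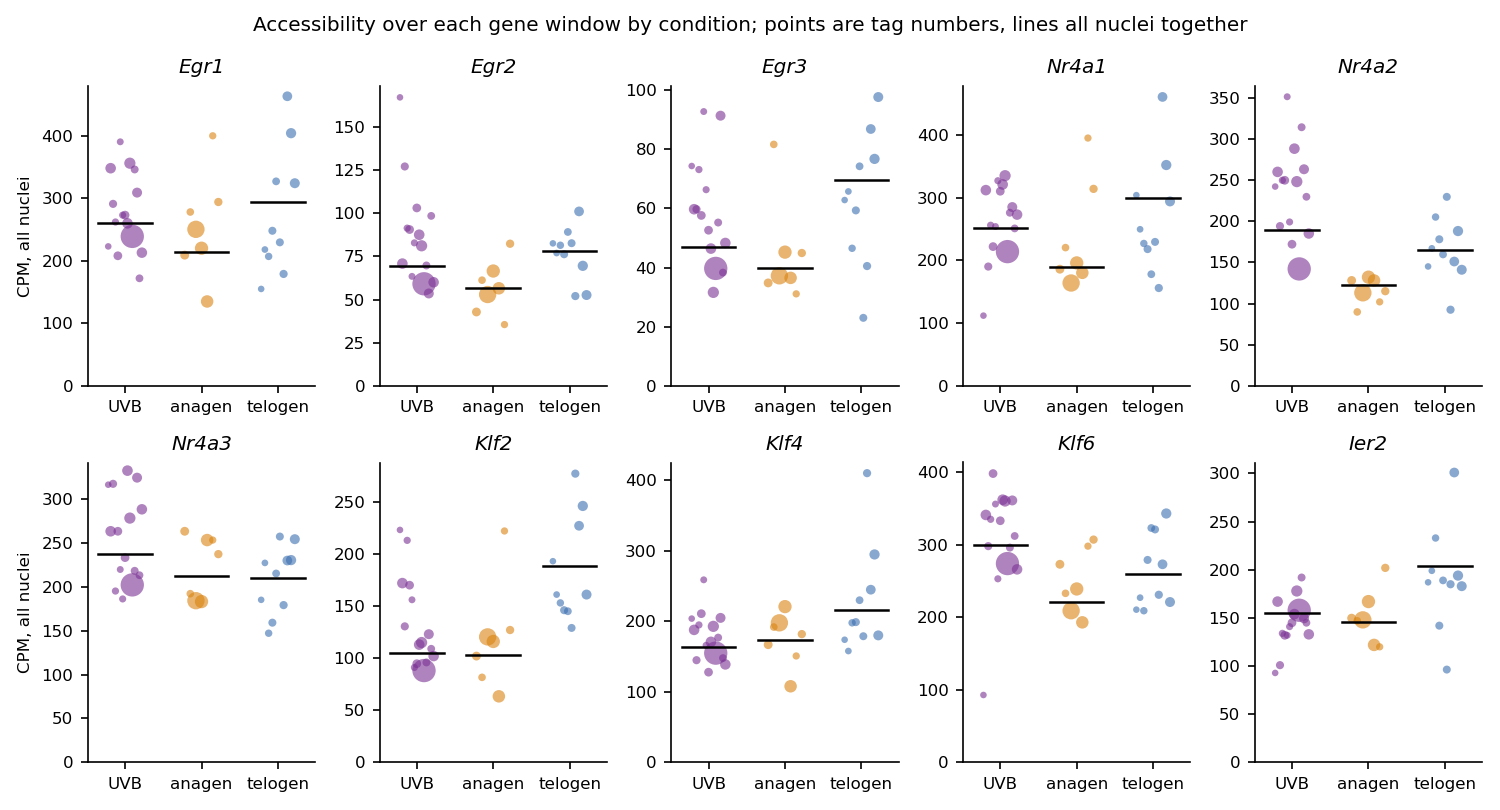
CPM (counts per 1000000 counts in features) over each member's window in all nuclei by condition (UVB, anagen, telogen). Points are tag numbers with at least 50 nuclei (15, 7 and 10 tag numbers), sized by their nuclei, and lines give all nuclei of the condition together; Nr4a2 is the panel in which the UVB points all lie above the anagen points, and the largest UVB point is tag number 19.

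By tag number the spread was wide, and Nr4a2 was the member whose UVB and anagen ranges did not meet over all nuclei. Nr4a2 ran from 142 to 351 CPM over 15 UVB tag numbers (median 248), from 89.8 to 132 CPM over 7 anagen tag numbers (median 115) and from 92.5 to 229.5 CPM over 10 telogen tag numbers (median 163). Of 16481 genes 0.176% had all UVB tag numbers above all anagen ones. Schwann-like nuclei and cluster 4, where Nr4a2 was most open, were 7.02% and 15.2% of UVB nuclei and 2.56% and 4.24% of anagen nuclei. By class the UVB over anagen interval of Nr4a2 was above 1 in melanocyte-like nuclei alone. It was below 1 in 1 of 7 classes and held 1 in 5. The part of cell makeup in this separation was not tested. Klf6 ran from 92.9 to 398 CPM in UVB (median 333), from 193 to 307 CPM in anagen (median 239) and from 209 to 343 CPM in telogen (median 252), and 9 of 15 UVB tag numbers were above the highest of anagen. Egr1 overlapped throughout, from 172 to 390.2 CPM in UVB, from 135 to 399.8 CPM in anagen and from 155 to 463 CPM in telogen. Within melanocyte-like nuclei the ranges of UVB (11 tag numbers) and anagen (5) did not meet for Nr4a1 and Klf2, which 1.79% of 14672 genes showed in that direction. Nr4a1 ran there from 260 to 369.8 CPM in UVB and from 134 to 258 CPM in anagen, and Klf2 from 56.8 to 182 CPM in UVB and from 34.4 to 52.8 CPM in anagen. Tag number 19 lay with the other UVB tag numbers in these nuclei, with 368 CPM for Nr4a1 and 113 CPM for Klf2. The lowest UVB and the highest anagen value of Nr4a1 rested on 56 and 51 counts. UVB nuclei of this class were mostly of cluster 1 and anagen nuclei mostly of cluster 8, so the tag numbers repeat that contrast. Within cluster 1 UVB over anagen was 1.09 for Nr4a1 (0.907 to 1.31) and 1.11 for Klf2 (0.806 to 1.56). Telogen had a single tag number with at least 50 melanocyte-like nuclei, so it has no range.

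Feature by feature, the leading feature of a member lay at its start for Nr4a1, Nr4a2, Klf2, Klf4, Klf6 and Egr2, whose feature centres were at -41, -179, -91, -42, -153 and -84 bases from it. That of Nr4a3 was at -1793 bases. Of Egr1, Egr3 and Ier2 the strand was not in the table used, so their features are given by position alone. Of 39 member features with at least 100 counts in melanocyte-like nuclei, 15 were at least 2-fold higher in UVB than in anagen and 2 that far lower; among 22444 such features 15.3% were higher and 10.8% lower. The 2 lower ones were both in Nr4a3. In UVB over telogen 8 were that far higher and 3 lower, where 22.5% and 8.22% of features were, and in anagen over telogen 5 and 15, where 22.4% and 22.3% were. A member feature with 0 telogen counts was given 3 counts, while among all features any such feature was called higher. The feature of Nr4a1 at chr15:101267600-101268100, with 77 counts in UVB and 0 in telogen, was not called. The higher counts of members against telogen thus follow a stricter rule and cannot be set directly against these shares. Leading features held a larger share of the gene's counts in UVB than in anagen for 9 of 10 members, Ier2 being the exception (32.3% and 32.5%). The shares were 59.4% and 42.0% for Klf6, 50.0% and 33.3% for Egr3, 50.8% and 34.4% for Klf4 and 36.1% and 20.0% for Nr4a3. Within cluster 1 UVB was below anagen for Klf6 (59.6% and 61.7%), Nr4a1 (32.9% and 43.1%), Nr4a2 (27.5% and 29.3%) and Ier2 (31.2% and 31.6%). It was above for the other members, Nr4a3 among them (36.7% and 34.7%). How many of all genes have a larger leading share in UVB was not measured, so the count of 9 is a description.

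At Nr4a1 the start feature (chr15:101266555-101267055) had 111 CPM in UVB, 49.9 CPM in anagen and 138 CPM in telogen melanocyte-like nuclei, 2.23-fold higher in UVB than in anagen (1.91 to 2.61). A feature at -6267 bases (chr15:101260329-101260829) was at 37.9, 9.81 and 24.4 CPM, and UVB over anagen was 3.87 (2.79 to 5.46). Another, 4929 bases after the start (chr15:101271525-101272025), was at 38.1, 10.7 and 32.5 CPM (3.57, 2.61 to 4.98). Both lie within the annotated gene body, and both had a larger UVB over anagen ratio than the start feature. In cluster 1 the start feature was at 113 CPM in UVB and 137 CPM in anagen, the other direction, though the interval of the ratio held 1 (0.829, 0.629 to 1.11). There the upstream feature was alike in UVB and anagen (37.2 and 39.0 CPM) and the downstream one was at 39.5 and 14.6 CPM, on 6 counts in anagen.

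At Nr4a3 the features differed in direction over the whole melanocyte-like class. The leading upstream feature (chr4:48043262-48043762) had 107 CPM in UVB, 51.4 CPM in anagen and 134 CPM in telogen, 2.08-fold higher in UVB than in anagen (1.78 to 2.43). In cluster 1 it was at 109 and 82.9 CPM (1.31, 0.927 to 1.91). A feature 2756 bases after the start (chr4:48047811-48048311) had 9.43 CPM in UVB, 21.7 CPM in anagen and 8.12 CPM in telogen, so UVB was 0.433 of anagen (0.300 to 0.618), with 2 counts in telogen. A feature 24652 bases after the start (chr4:48069707-48070207) had 8.42, 17.1 and 20.3 CPM (UVB over anagen 0.494, 0.332 to 0.726), with 5 counts in telogen. Both lie within the gene body. In cluster 1 the first of them had 43 counts in UVB and none in anagen, and the second 37 and 3, so the higher anagen values came from cluster 8. In cluster 8 the first was at 18.1 CPM in UVB, on 4 counts, and 23.8 CPM in anagen. The second was there at 22.6 CPM in UVB, on 5 counts, and 18.0 CPM in anagen. In neither cluster alone were both features lower in UVB. The gene-level ratio of Nr4a3 in the whole class joined features of opposite direction.

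**Figure D3:**
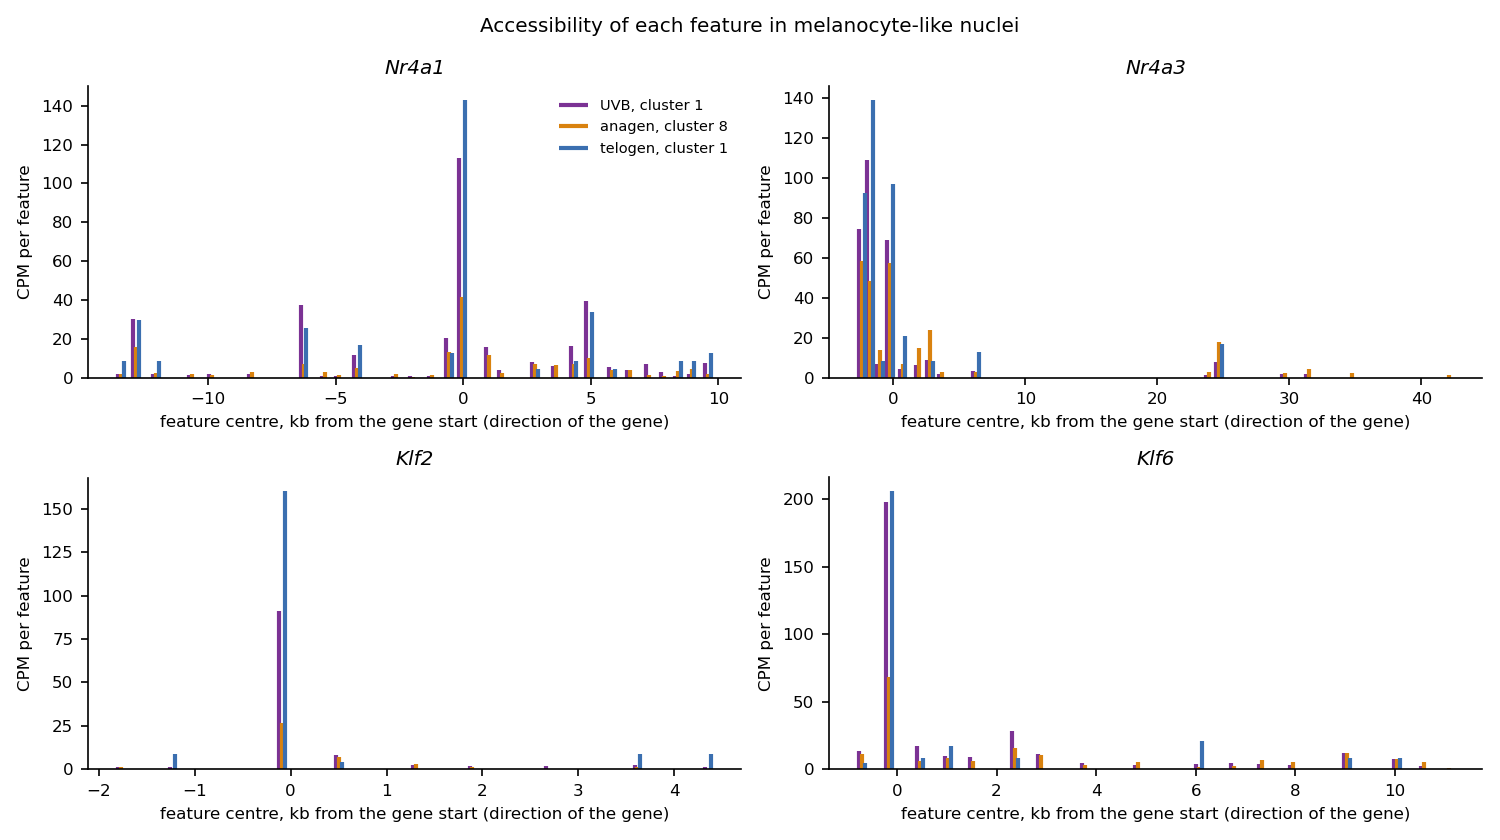
CPM of each feature against the distance of its centre from the gene start, in kb and in the direction of the gene, for Nr4a1, Nr4a3, Klf2 and Klf6. Bars stand for UVB nuclei of cluster 1, anagen nuclei of cluster 8 and telogen nuclei of cluster 1, set slightly apart; anagen is the lowest at the leading feature of each gene, and at Nr4a3 it is higher than UVB at the features 2756 and 24652 bases after the start.

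At Klf4 the start feature (chr4:55532267-55532767) had 79.6 CPM in UVB, 33.5 CPM in anagen and 24.4 CPM in telogen melanocyte-like nuclei. It was 2.38-fold higher in UVB than in anagen (1.97 to 2.88) and 3.27-fold higher than in telogen (1.49 to 8.96, with 6 counts in telogen). Within cluster 1 it stood at 81.7, 26.8 and 25.3 CPM, and the ratios were 3.04 (1.68 to 6.15) and 3.23 (1.47 to 8.86). The next feature of Klf4, at -591 bases, had 20.5, 27.9 and 24.4 CPM, with UVB the lowest. At Klf2 the start feature (chr8:72318721-72319221) held 81.8% of the gene's counts in UVB, 68.9% in anagen and 84.4% in telogen, with 88.3, 31.1 and 154 CPM. UVB over anagen was 2.83 there (2.35 to 3.44), and 1.13 in cluster 1 (0.792 to 1.66). At Klf6 the start feature (chr13:5861086-5861586) had 193, 77.4 and 199 CPM, 2.50-fold higher in UVB than in anagen (2.21 to 2.82) and, in cluster 1, 1.15-fold (0.900 to 1.48). At Egr2 the feature over the printed window (chr10:67537535-67538035) had 43.5 CPM in UVB, 24.7 CPM in anagen and 8.12 CPM in telogen, the last on 2 counts. In cluster 1 it was at 44.3 CPM in UVB and 41.4 CPM in anagen (1.07, 0.652 to 1.87). At Nr4a2 the start feature (chr2:57123932-57124432) was 2.36-fold higher in UVB than in anagen (1.92 to 2.91), and 1.65-fold in cluster 1 (1.02 to 2.87). Nr4a2 also had features at 7144 and 8934 bases after the start (chr2:57116609-57117109 and chr2:57114819-57115319), where UVB over anagen was 2.25 (1.74 to 2.93) and 2.73 (2.09 to 3.60).

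For the genes without a listed strand, the leading feature of Egr1 (chr18:34860878-34861378), over the lower end of the gene, had 77.4 CPM in UVB, 36.5 CPM in anagen and 85.2 CPM in telogen melanocyte-like nuclei (UVB over anagen 2.12, 1.77 to 2.56, and 1.41 in cluster 1, 0.929 to 2.26). That of Egr3 (chr14:70076650-70077150) had 14.6 CPM in UVB, 8.96 CPM in anagen and 32.5 CPM in telogen, on 73, 42 and 8 counts. The leading feature of Ier2 (chr8:84663877-84664377) had 34.8 CPM in anagen and 93.3 CPM in telogen, and anagen over telogen was 0.372 (0.240 to 0.604). A neighbour of it (chr8:84664807-84665307) was at 14.2, 8.10 and 40.6 CPM in UVB, anagen and telogen, with 10 counts in telogen.

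The classes of nuclei differed in which members were most open, compared as CPM per kb of features. Each range below is that of a class over the 3 conditions. Klf2 was highest in endothelial-like nuclei, at 64.6 to 82.9 CPM per kb, and the next, the unnamed cluster 9 (led by the leukocyte genes Tyrobp and Cd53), ranged from 37.4 to 44.6. Klf4 was likewise highest in endothelial-like nuclei (47.4 to 68.5), and fibroblast-like nuclei came next (32.5 to 41.9). Neither pair of ranges overlapped. Melanocyte-like nuclei were next to lowest for Klf2 (10.0 to 40.6) and lowest for Klf4 (17.0 to 28.5), each range overlapping that of the class above.

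Nr4a3 was highest in cluster 9 (34.0 to 55.2) and melanocyte-like nuclei (34.3 to 52.5), followed by cluster 4 (35.4 to 42.3), with overlapping ranges. It was lower in Schwann-like (31.9 to 34.2), endothelial-like (23.9 to 26.9), keratinocyte-like (16.8 to 26.0) and fibroblast-like nuclei (19.6 to 21.7), and the Schwann-like range met neither neighbour's. Nr4a2 was highest in Schwann-like nuclei (37.7 to 52.0) and cluster 4 (36.1 to 41.2), which did not overlap with the rest. Fibroblast-like nuclei had the least of it (11.4 to 14.6). Nr4a1 had no class that stood apart: cluster 9 led (22.3 to 26.1), Schwann-like nuclei (19.5 to 26.5) and melanocyte-like nuclei (12.7 to 24.2) followed, and each class overlapped the next.

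Egr1 was highest in fibroblast-like (62.0 to 84.0) and endothelial-like nuclei (56.8 to 89.0), and melanocyte-like nuclei were next to lowest (26.7 to 49.9). Egr2 was highest in cluster 9 (22.3 to 30.2), above the other classes, and Schwann-like nuclei had the lowest mean (10.3 to 13.3). Egr3 was highest in Schwann-like (17.7 to 40.2) and keratinocyte-like nuclei (16.5 to 26.8). In the 84 telogen nuclei of cluster 4 it had no count, which allows up to 3 counts. Klf6 ranged from 25.5 to 28.2 in keratinocyte-like to 40.7 to 48.6 in Schwann-like nuclei. Ier2 was highest in endothelial-like nuclei (44.9 to 64.6) and lowest in cluster 4 (14.5 to 27.5).

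**Figure D4:**
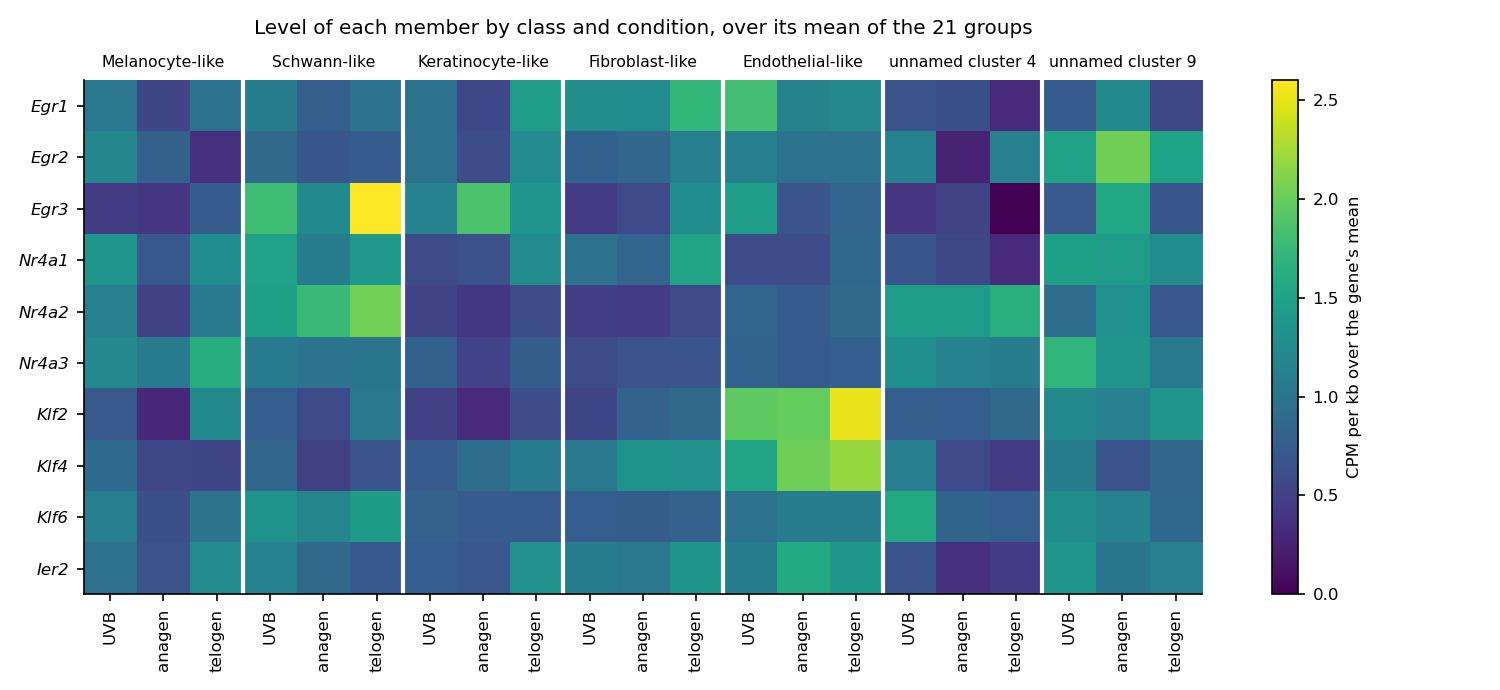
Level of each member (rows) in each class and condition (columns, UVB, anagen, telogen within a class), as CPM per kb of features over the mean of the gene's 21 groups. By class mean Klf2 and Klf4 are highest in endothelial-like nuclei, Nr4a2 in Schwann-like nuclei and Egr2 in cluster 9, and within melanocyte-like nuclei the anagen column is darker than the UVB column.

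The order of conditions in melanocyte-like nuclei was not that of every class. In UVB over anagen, 2 of 10 members were past 1.5-fold higher and none lower in endothelial-like nuclei (median 0.10), where 14.1% and 11.6% of genes were. In keratinocyte-like nuclei 4 were higher and 1 lower (median 0.23; 17.7% and 19.6% of genes). Schwann-like nuclei had 1 higher and none lower (median 0.39; 26.8% and 17.0%), cluster 4 had 4 and none (median 0.24; 28.4% and 18.6%), and cluster 9 had 1 and 2 (median 0.09; 21.2% and 16.2%). For Schwann-like nuclei, of which 96 were anagen, no member had an interval off 1 in this comparison. In endothelial-like nuclei Egr1 was higher in UVB, at 445 CPM, than in anagen, at 284 CPM (1.57, 1.33 to 1.84), and than in telogen, at 299.7 CPM (1.49, 1.26 to 1.75). Klf4 was lower there in UVB, at 261 CPM, than in anagen, at 351 CPM (0.744, 0.617 to 0.894), and than in telogen, at 377 CPM (0.692, 0.574 to 0.831). The direction of Klf4 in melanocyte-like nuclei of cluster 1 was the other way. Fibroblast-like nuclei join clusters 3 and 5, and UVB and anagen lie mostly in different ones: 788 UVB, 284 anagen and 189 telogen nuclei were in cluster 3, and 135, 906 and 135 in cluster 5. In this class UVB over anagen had a member median of -0.05 and 1 of 10 past 1.5-fold, Klf2, which was lower (0.663, 0.572 to 0.769). Of 14360 genes 8.13% were that far higher and 11.5% lower. Against telogen Egr3 (0.364, 0.271 to 0.490), Nr4a1 (0.636, 0.563 to 0.719) and Klf2 (0.604, 0.491 to 0.746) were lower in UVB fibroblast-like nuclei, where 10.9% of 13500 genes were lower and 10.8% higher.

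Keratinocyte-like nuclei join cluster 6 (828 UVB, 61 anagen and 263 telogen nuclei) and cluster 7 (610, 266 and 171), so anagen lies mostly in cluster 7. In this class telogen was above both other conditions for Egr1 and Nr4a1. Egr1 had 237 CPM in UVB, 137 CPM in anagen and 352 CPM in telogen, with ratios to telogen of 0.674 (0.605 to 0.753) in UVB and 0.390 (0.302 to 0.498) in anagen. Nr4a1 had 147, 158 and 309 CPM, with ratios of 0.475 (0.418 to 0.539) and 0.510 (0.400 to 0.644). In UVB over telogen Nr4a1 was below 1 in keratinocyte-like, fibroblast-like and endothelial-like nuclei (0.682, 0.532 to 0.870 in the last). It was within counting error in melanocyte-like and Schwann-like nuclei (1.07, 0.790 to 1.47) and cluster 9 (1.17, 0.967 to 1.42), and higher in UVB in cluster 4 (2.25, 1.13 to 5.27, on 8 telogen counts). These differences between classes were not tested. In cluster 4 UVB was higher, with a median of 0.78 over telogen and 5 of 10 members past 1.5-fold higher and none lower (34.3% and 21.1% of 10452 genes were), on 84 telogen nuclei.

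The members summed reached 1984 CPM in UVB, 1193 CPM in anagen and 2017 CPM in telogen melanocyte-like nuclei. Over the 21 groups of class and condition the sum had a Pearson r of 0.75 with the share of counts near gene ends, so groups with more signal at gene ends also had more at the members. The groups share depth and cells of the same libraries, and the value is a description. The genes most like the summed members over these groups were Fos (r 0.835), Rnf31 (0.812), Rfx1 (0.809), Junb (0.790) and Tor1aip1 (0.777). Fos and Junb encode parts of AP-1 and are themselves early response genes.

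Lists of related genes were compared in melanocyte-like nuclei. The relatives and partners include other Klf genes and the Egr corepressors Nab1 and Nab2. Of 13 measured, 8 were past 1.5-fold higher in UVB than in anagen and none lower (median 0.73). Among all genes 16.7% were that far higher and 22.9% lower. Klf12 was 2.50-fold higher (2.00 to 3.15), Klf8 2.40-fold (1.56 to 3.76), and Klf15 (1.08, 0.979 to 1.19) and Klf3 (1.13, 1.04 to 1.24) were the lowest. Of 29 other early response genes 10 were that far higher and 2 lower (median 0.34): Ccn2, a matrix protein gene, was 4.39-fold higher (2.72 to 7.41) and Myc 2.18-fold (1.92 to 2.48), and Id1 (0.531, 0.455 to 0.619) and Nfil3 (0.651, 0.557 to 0.759) were lower. Heat shock genes, also marks of cell stress, were higher in UVB for 8 of 10 (median 0.82), led by Hspa1a (2.30, 2.04 to 2.59) and Hspa1b (1.99, 1.79 to 2.22). Of this list Hspe1 and Hspd1 had nearly the same counts over all nuclei (2511 and 2520 in UVB, 1183 and 1190 in anagen). They may therefore not be separate measurements. The housekeeping control had a median of 0.25 with 3 of 18 higher and 1 lower: Polr2a (1.82, 1.61 to 2.08) and Actb (1.65, 1.51 to 1.81) were its highest, and Reep5 (0.542, 0.449 to 0.652) and Psmb2 (0.907, 0.750 to 1.10) its lowest.

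Genes that act upstream of the members had a median below 0. The list of the serum response factor arm and upstream kinases also held Creb1, the gene of CREB, and the CREB coactivators Crtc2 and Crtc3. Of its 15 measured genes none was past 1.5-fold higher in UVB than in anagen and 5 were lower (median -0.39). Among all genes 16.7% were that far higher and 22.9% lower. Mrtfb, a coactivator of serum response factor, was at 0.307 (0.273 to 0.346), with 74.4 CPM in UVB and 242 CPM in anagen, and the kinase Map2k1 at 0.329 (0.262 to 0.411). Rps6ka3 (1.37, 1.19 to 1.59) and Crtc2 (1.32, 1.17 to 1.50) were the highest. Within cluster 1 the UVB over anagen medians were 0.17 for the relatives, 0.12 for the other early response genes, -0.00 for the heat shock genes, -0.13 for the serum response factor arm and 0.07 for the housekeeping control. Each of these medians was nearer to 0 than in the whole melanocyte-like class, as was that of the members.

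Against telogen the lists in UVB melanocyte-like nuclei had medians of 0.16 (relatives), -0.19 (serum response factor arm), 0.05 (other early response genes), 0.03 (heat shock genes) and 0.01 (housekeeping control), and all genes had 0.04. Zfp36l1, an mRNA decay factor, was 2.14-fold higher in UVB (1.46 to 3.30), and Csrnp1 1.64-fold (0.985 to 2.95). Lower in UVB were Ier5l (0.563, 0.382 to 0.861), Btg2 (0.616, 0.464 to 0.834), Mapkapk2 (0.556, 0.380 to 0.843), Rps6ka3 (0.614, 0.437 to 0.888), Hspa1a (0.656, 0.517 to 0.844) and Klf11 (0.681, 0.538 to 0.875). In anagen over telogen 22.1% of all genes were past 1.5-fold lower and 32.1% that far higher. Of 10 heat shock genes 8 were that far lower and none higher (median -0.77). Of 28 other early response genes 9 were lower and 2 higher (median -0.27). Of 13 relatives 4 were lower and 1 higher (median -0.30), and of 18 housekeeping genes 5 and 2 (median -0.32). Of the serum response factor arm 5 of 15 were higher and 1 lower (median 0.14). The lowest among those named were Hspa1a (0.286, 0.222 to 0.372), Btg2 (0.335, 0.250 to 0.458) and Klf11 (0.395, 0.310 to 0.511), while Mrtfb (3.51, 2.18 to 6.05) and Id1 (2.25, 1.25 to 4.54) were higher in anagen.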

How the data were processed

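The submitters' processing notes name mm10 (GRCm38) and the tools Bowtie2, SAMtools and MACS2. The values deposited by the authors are counts, whole numbers for each feature in each nucleus. How reads were counted, filters on nuclei, doublet removal and transposase shift: not given in the sources. Barcodes repeated within a condition were counted once, keeping the deeper copy (62 second copies in UVB, 1721 in anagen, 543 in telogen, with median overlaps of open features of 97.5%, 90.0% and 97.2%). Another 506 barcodes occurred in several conditions; these were kept, since their open features overlapped by 3.27% (median). Of the deposited counts above 0, 61.1% were 2 and 31.0% were 1, and none was above 4, so most counts come in pairs and the intervals are too narrow.

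Nuclei were clustered by TF-IDF, 30 components, 15 neighbours and the Leiden method (resolution 0.6, seed 1), with the members' features included, and named from marker lists: at least 3 markers at 2-fold, the highest median fold, no other list with more markers among the top 10 genes, and a margin of 0.2 (log2) to the second list, set after the scores were seen and passed by cluster 1 at 0.25. No doublet caller was run. Counts were summed per condition and class and given as CPM. Ratios have exact conditional binomial 95% intervals; no test was run, because each condition was 1 sample and the 2 technical replicates of UVB were not separated. A gene was called past a fold at 1.5-fold with at least 30 counts over both conditions, and a ratio against 0 counts uses 3 counts. The intervals were run on simulated counts drawn singly, the model they assume, and in pairs. A coverage was required of the single draws alone, so passing does not speak for the paired counts of these data. Clustering used scikit-learn 1.9.0, leidenalg 0.10.2 and igraph 0.11.9. Intervals used scipy 1.17.1, sums numpy 2.4.6 and pandas 2.3.3, and figures matplotlib 3.10.9, under Python 3.11.15.

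Gene positions came from RefSeq on GRCm38.p6. The members, lists and tests were chosen with earlier results of these data known. All members are named; of features, those with most counts per gene and those with at least 100 counts in melanocyte-like nuclei past 2-fold (those resting on 1 to 3 counts in a condition are mostly left to the counts); of lists, up to 2 highest and 2 lowest per comparison, the clearest of which are printed; and the 5 genes of at least 200 counts most like the summed members on log2(CPM + 1).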

Additional observations from a re-analysis of the deposited data

How the results depend on the processing

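No paired analysis was possible because each condition was 1 sample and none of the results comes from a test. The planned comparison in clusters with no condition over 80% of their nuclei was not run, because no melanocyte-like cluster met it; cluster 1 alone, cluster 4 included and classes in equal shares were added after seeing the data. The count of members past 1.5-fold in UVB over anagen was 7 in melanocyte-like nuclei and was 2 in cluster 1 alone and 4 when scaled to counts near gene ends or to the housekeeping control; the median (0.75) was 0.19, 0.44 and 0.46 under these and 0.95 over the gene body only. These scalings shift every gene alike, by -0.31 and -0.29 there and by 0.37 and 0.41 in anagen over telogen, so the position of the members relative to other genes is not moved by them. In anagen over telogen the melanocyte-like count of 9 was 4 in cluster 1 alone, 5 with nuclei thinned to 1000 counts, and 3 with either scaling, with cluster 4 included, with clustering seed 3 or with the members' features left out of the clustering; the last 3 held 231, 229 and 229 telogen nuclei. In UVB over telogen the melanocyte-like median of 0.08 was -0.40 over features near gene ends. Over all nuclei the UVB over anagen count of 1 was 2 without UVB tag number 19 (median 0.44) and 0 with classes in equal shares or scaled to gene ends. The UVB over telogen count of 1 was 0 with classes in equal shares, 2 over features near gene ends and 4 with telogen tag numbers 8 to 10 only, and the median of -0.21 was -0.11, -0.05 without tag number 19, -0.03 scaled to the housekeeping control and -0.57 with those telogen tag numbers. The anagen over telogen count of 3 was 5 with those tag numbers, and the median of -0.46 was -0.28 and -0.27 under the scalings. Of 764 single-gene log2 ratios under alternatives 716 kept their sign, and 14, of 5 members, turned with a main interval off 1. In UVB over anagen these were Nr4a3 over the gene body (-0.09 in all nuclei, -0.31 in melanocyte-like nuclei) and under both scalings in melanocyte-like nuclei (-0.11 and -0.09), Egr3 with classes in equal shares (-0.20) and Egr2 in cluster 1 (-0.06). In UVB over telogen, all nuclei, these were Egr2 (0.01 scaled to the housekeeping control, 0.11 thinned, 0.04 without tag number 19, 0.22 with classes in equal shares), Egr1 (0.01 scaled to the housekeeping control), Nr4a3 (-0.05 near gene ends, -0.11 with classes in equal shares) and Nr4a2 (-0.07 with classes in equal shares). Apart from the constructions named, the cause of these differences was not tested. The 147 telogen nuclei of the melanocyte-like class limit every comparison with telogen.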
